A study of Mus musculus with 30 samples.

Results

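Tumours grown in nude mice from transformed wildtype mouse embryonic fibroblasts (MEFs) were compared with the same kind of transformed cells in culture. The members of the comparison are 12 of the 30 arrays of the study, chosen by their titles. They comprise 9 tumour arrays, 3 from each of recipients 1, 2 and 3, and 3 arrays of wildtype transformed MEFs. The 3 arrays of a recipient were averaged, so that each group holds n = 3. Wildtype cells came from FVB/N mice with normal Smchd1, a chromatin protein of the SMC family that acts in gene silencing. Transformed MEFs carried a knockdown of p53 and overexpressed HRasv12, an activated form of the Ras oncoprotein, and were taken 2 weeks after transformation. The tumours came from such cells, carried the same alterations and were collected fresh from the mice. Wildtype primary MEFs of 2 to 3 passages carried neither alteration and are given as a reference level. The same step in Smchd1 null cells with the MommeD1 point mutation is set beside the wildtype step. The labels do not say whether a group's arrays came from separate cultures, which vectors were used, how many clones grew or whether the 3 recipients received the same cells. The p-values therefore measure the spread between these samples, which for the cultures may be technical.

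A tumour raised from cultured cells contains the injected cells together with host vessels, blood and leukocytes, which bring nutrients, oxygen and inflammatory signals. Nude mice have no thymus and so lack most T cells, but they keep macrophages, neutrophils, mast cells, natural killer (NK) cells and B cells. Host and injected cells are both from mouse, so 1 probe reads the RNA of either. In such bulk samples, fewer cells of a type and less RNA per cell cannot be told apart.

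Levels are log2 probe signals after quantile normalization of all 30 arrays together, and 13870 genes were tested. Background, the 95th percentile of the probes detected on no array, lay between 6.27 and 6.38 on each array. The Rep 3 array of recipient 3 stood apart. Its deviations from the tumour mean correlated at -0.04 and 0.20 with the other arrays of that recipient, whereas those 2 arrays correlated at 0.66 with each other. Without it 2042 genes rose and 2148 fell, no count in any of the 38 gene lists moved by more than 2, and 23 lists kept both counts. Transformed MEFs were hybridised on 1 beadchip and tumours on 3 others, so beadchip and stage cannot be told apart. Median variance over genes was 0.0993 between recipient means of 3 arrays, 0.0908 between single arrays of 1 recipient and 0.0123 between single transformed arrays. The first is a variance of means and is not on the scale of the others. Smchd1 read 9.42, 9.28 and 9.58 in transformed MEFs and 9.16, 9.46 and 9.33 in recipients 1, 2 and 3, and its other probe stood 0.65 higher in tumours (adjusted p over all probes 0.030).

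At an adjusted p under 0.05, 1945 genes rose in the tumours and 2044 fell, together 28.8% of those tested (14.0% and 14.7%). The samples of the 2 groups did not overlap in 49.8% of genes. By at least 2-fold, 1244 rose (8.97%) and 941 fell (6.78%). Of the called genes, 48.8% were higher in tumours. That share was 85.6% with the values as deposited, where the median gene stood 0.37 higher in tumours, and 36.2% with each array centred on its median, where the median difference was -0.14. In the normalization used here the median difference over all genes was -0.015, and the differences below are in this normalization. Leaving out transformed array 1, 2 or 3 left 1722, 1746 or 1703 genes called, and leaving out recipient 2 raised the number to 6263.

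Rises were more frequent among genes that transformed cells did not express. By a rule that does not use the wildtype samples, 1657 genes were not above background on any array of null transformed MEFs. Of these, 588 (35.5%) rose in wildtype tumours and 3 fell. Of the other 12213 genes, 1357 (11.1%) rose and 2041 (16.7%) fell. A gene of the first class passed the detection filter mainly through primary MEFs or tumours, so its share of rises describes the class and supports nothing. Among the 588, 306 were above background on no array of wildtype primary MEFs either, and 200 on all 3.

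Macrophage markers rose together. Of 18 listed genes 17 were measured, 16 rose and none fell, with a median log2 difference of 3.92. Laptm5, a lysosomal membrane protein of blood cells, read 6.00, 5.94 and 6.24 in the transformed arrays and 14.43, 14.23 and 13.93 in the recipients. The groups lie far apart, and with transformed MEFs held at background the tumours were at least 227-fold higher (adjusted p = 6.9e-06). C1qa, a complement subunit gene that macrophages express, rose by 4.10 on the log2 scale, and its partners C1qb and C1qc, not above background on any transformed array, were at least 33.4-fold and 31.0-fold higher. Csf1r, the receptor that keeps macrophages alive, read 6.23, 6.13 and 6.07 in culture and 9.53, 9.39 and 9.37 in tumours, at least 8.35-fold higher. Lyz2, lysozyme, was at least 62.0-fold higher, and Lyz1, its neighbour and close copy, at least 229-fold, although their probes may share signal. Mrc1, the mannose receptor, read 6.22, 6.41 and 6.48 against 12.99, 12.75 and 11.61, a log2 difference of 6.08 with a standard error (SE) of 0.36. Cd68, a lysosomal protein used to stain macrophages, rose by 4.14 ± 0.33 (SE), and Adgre1, a surface protein used likewise, was at least 6.46-fold higher. Itgam was the measured marker that did not pass (adjusted p = 0.14), above background on no transformed and 5 of 9 tumour arrays. The calls of Cd163, Ctss and Cx3cr1 were lost without any 1 transformed array (adjusted p up to 0.053, 0.081 and 0.16). Ctss was also lost without recipient 1. These markers are not special to tumours. Their mean level was 9.87, 9.67 and 9.95 in primary MEFs, 6.16, 6.14 and 6.17 in transformed MEFs and 10.18, 10.49 and 9.83 in tumours. Of the 17 genes, 14 were above background on all 3 primary arrays and 12 on no transformed array.

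The genes of class II antigen presentation behaved otherwise in primary cells. The mean of the 7 measured genes was 6.53, 6.54 and 6.38 in primary MEFs, 6.27, 6.31 and 6.31 in transformed MEFs and 11.11, 11.17 and 10.51 in tumours. Of 11 listed genes, 6 of the 7 measured rose and none fell. Of the 7, 6 were above background on no transformed array and could hardly fall, so the count supports nothing. Cd74, the invariant chain that escorts class II molecules, read 5.88, 5.93 and 5.95 in culture and 13.75, 13.99 and 13.66 in tumours, at least 172-fold higher (adjusted p = 2.8e-06). H2-Eb1 and H2-Ab1, chains of the peptide-binding molecules themselves, were at least 76.4-fold and 75.4-fold higher. Ciita, the switch protein for this gene family, read 5.98, 5.97 and 5.99 against 8.86, 9.07 and 8.43. H2-DMa, which helps load peptides, was already above background in culture (8.15, 8.15 and 8.13) and reached 10.77, 11.11 and 10.20. H2-Aa, above background on no transformed and 5 of 9 tumour arrays, missed the threshold (adjusted p = 0.098).

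**Figure D1:**
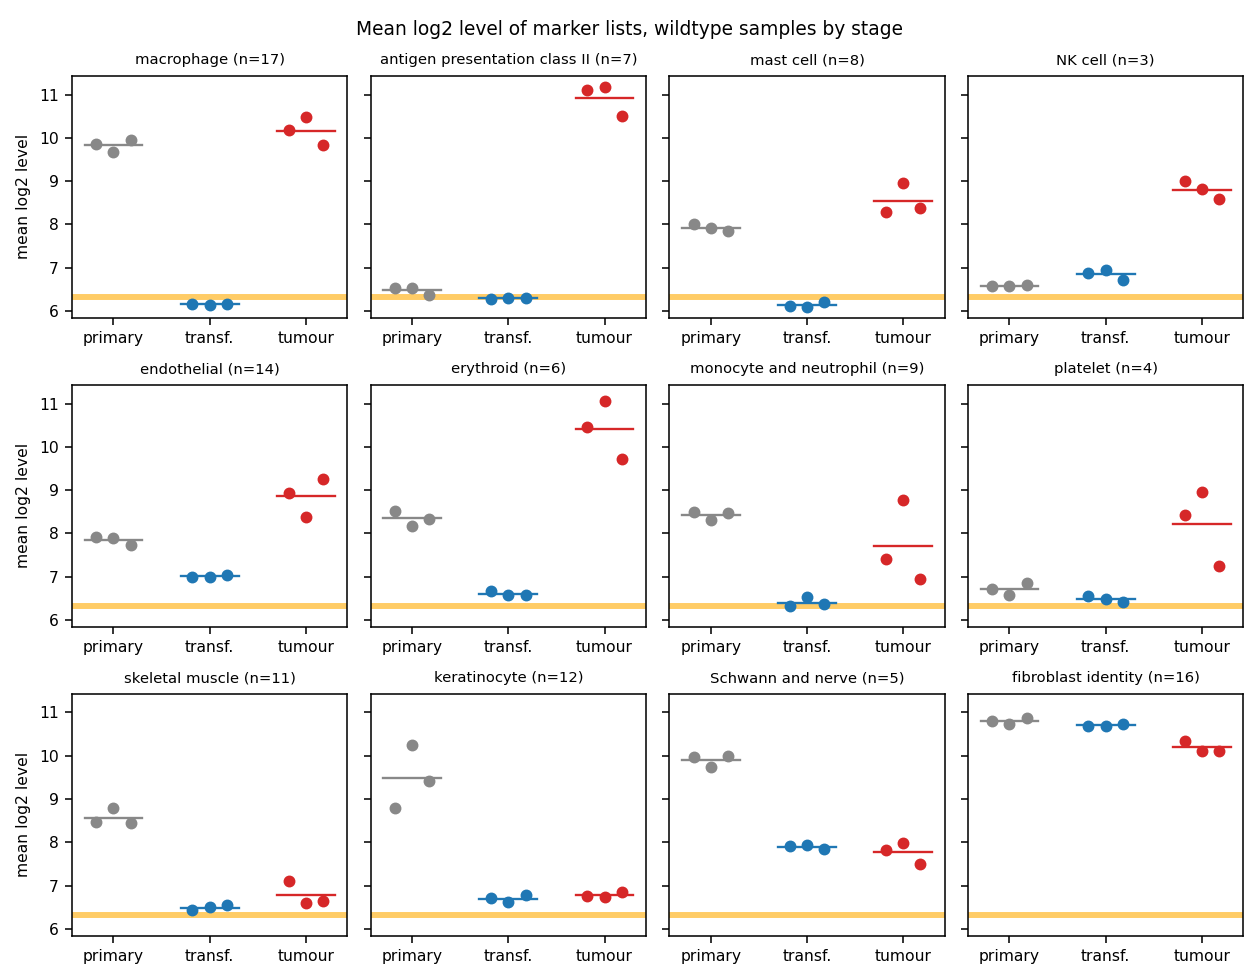
Mean log2 level of the measured genes of 12 marker lists, with 1 point per wildtype sample of primary MEFs, transformed MEFs and tumours (recipient means), a line at each group's mean and a band for the range of array backgrounds. Macrophage markers are low in transformed MEFs only, class II genes are high in tumours only, and the fibroblast list lies between 10.12 and 10.87 in every sample.

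Mast cell genes also rose. Of 9 listed, 8 were measured and 7 rose. Tpsab1, a tryptase stored in mast cell granules, read 6.08, 6.04 and 6.00 in culture and 10.53, 10.96 and 10.82 in tumours, at least 21.1-fold higher. The granule proteases Mcpt4 and Cma1 were at least 4.50-fold and 2.52-fold higher, and Kit, the stem cell factor receptor, at least 3.39-fold. Hdc, which makes histamine, varied between recipients (9.86, 12.12 and 8.80), and its call was lost without any 1 transformed array (adjusted p up to 0.067). Fcer1a was 6.67, 6.44 and 6.75 in culture and 6.73, 6.89 and 7.05 in tumours and did not pass.

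Few lymphocyte markers could be read. Of 10 NK genes 3 were measured and all 3 rose. Prf1, perforin, the pore-forming protein of killer cells, read 8.40, 8.52 and 8.20 in culture and 11.89, 11.51 and 11.61 in tumours (3.29 ± 0.16, SE, adjusted p = 8.9e-05). Klrd1, an NK receptor chain, was at least 2.99-fold higher, and the call of Nkg7 was lost in 5 of the 6 fits that leave out 1 sample (adjusted p up to 0.15). Of 11 T cell genes named on the array 4 passed the detection filter and none rose. Lck, a T cell kinase, was lower (6.97, 7.54 and 7.33 against 6.48, 6.74 and 6.74), a call lost without transformed array 2 or 3 or recipient 1 or 3 (adjusted p up to 0.16). Of 10 B and plasma cell genes 2 were measured. Ighm reached 6.28, 6.54 and 6.56 in tumours from 6.01, 5.99 and 5.99, a call lost without any 1 transformed array or recipient 3 (adjusted p up to 0.14).

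Among monocyte and neutrophil genes, S100a8 and S100a9 varied with the recipient. Of 15 listed, 9 were measured and 2 rose (22.2%, against 14.0% of all genes). Of the 9, 6 were above background on no transformed array. S100a9, a calcium-binding protein of neutrophils, read 5.97, 5.95 and 6.00 in culture and 10.07, 13.46 and 8.30 in tumours. Recipient 2 was the highest and recipient 3 the lowest. The at least 18.9-fold rise (adjusted p = 0.029) lost its call without any 1 transformed array or recipient 1 (adjusted p up to 0.10). The other called gene, Csf3r, the receptor for the neutrophil growth factor, was lost without any 1 transformed array (adjusted p up to 0.080). S100a8, the partner of S100a9, read 10.98, 13.89 and 10.12 in tumours and did not pass (adjusted p = 0.069). The granule genes Mpo, Ltf and Ngp were above background on no tumour array.

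Endothelial genes rose in 10 of the 14 measured (15 listed), with a median log2 difference of 1.87. Cdh5, the cadherin of vessel junctions, read 6.62, 6.81 and 6.32 in culture and 10.98, 9.53 and 10.60 in tumours (3.79 ± 0.37, SE, adjusted p = 0.0011). Pecam1, Emcn and Vwf, surface and clotting proteins of vessel lining cells, were at least 4.07-fold, 5.70-fold and 3.64-fold higher. Not all members followed. Flt1, a Vegf receptor, read 8.57, 8.29 and 8.75 against 10.66, 8.91 and 10.48 (adjusted p = 0.053), and Tek read lower in each tumour (7.79, 7.77 and 7.44 against 6.57, 6.60 and 7.39, adjusted p = 0.054). The calls of Cldn5 and Eng were lost without transformed arrays 1 or 3 and 1 or 2 (adjusted p up to 0.052 and 0.054). In recipient 2 the list averaged 8.37, below the 8.94 and 9.25 of recipients 1 and 3.

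Red blood cell genes rose as well. Of 13 erythroid genes, 6 were measured and 5 rose. The globins Hba-a1 and Hbb-b1 read 15.01, 14.82 and 14.17 and 14.73, 14.83 and 13.67 in tumours and lay below background in transformed MEFs, at least 315-fold and 264-fold higher. Probes of closely related globin genes may share signal. Alas2, which starts haem synthesis in red cells, was at least 5.51-fold higher. Hbb-b2 read 9.81, 10.43 and 7.99, Alas2 read 8.81, 9.92 and 7.76, and recipient 3 was the lowest in both. Pf4, a platelet chemokine, was at least 23.7-fold higher (11.79, 12.04 and 8.98 in tumours) and was the only one of 4 measured platelet genes to pass.

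Markers of the tissues around a tumour mostly did not pass the test. None of 5 nerve or 3 fat cell genes measured passed, 1 of 11 skeletal muscle genes did (Myl1, at least 1.46-fold, lost without any 1 transformed array, adjusted p up to 0.087), and 1 of 7 pericyte genes did (Cspg4, 1.48 ± 0.40, SE, lost in 5 of the 6 fits that leave out 1 sample, adjusted p up to 0.13). Of 15 keratinocyte genes 12 were measured, 1 rose and 2 fell, and 4 of the 12 were above background on no tumour array (Krt5, Sfn, Flg and Trp63). Trp63, the master factor of squamous epithelium, fell from 7.87, 7.53 and 7.93 to background. Krt10, a keratin of the upper epidermis, fell by 0.63 (SE 0.18), a call lost without any 1 transformed array or recipient 1 (adjusted p up to 0.13). Cdh1, E-cadherin, was the list's single rise (6.51, 6.55 and 6.72 against 10.34, 9.77 and 8.49, adjusted p = 0.0050). Over all 15 host cell lists, 112 of 181 genes were measured. Of these, 54 rose (48.2%) and 3 fell (2.68%), against 14.0% and 14.7% of all genes. Of the 112, 62 were above background on no transformed array, so they could hardly fall. They passed the detection filter mainly through other stages, in part the tumours themselves, so these counts describe the lists and support nothing. What part of any change below comes from these host cells was not tested.

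Fibroblast identity genes, which the injected cells express, fell at near the share of all genes. Of the 16 genes in this list 15 were above background on all 3 transformed arrays and 12 on all 9 tumour arrays. None rose and 3 fell (18.8%), against 14.0% and 14.7% of all genes. Prrx1, a mesenchymal homeobox factor, read 11.73, 11.65 and 11.66 against 10.66, 11.63 and 10.67, and Thy1, a fibroblast surface protein, 13.08, 12.85 and 13.13 against 12.20, 13.08 and 12.87. Neither passed. Twist1, a mesenchymal transcription factor, fell by 0.86 (SE 0.15) and Meox2 by 1.77 (SE 0.23). Dpt, the matrix protein dermatopontin, fell by 1.73 (SE 0.25). The list mean was 10.70, 10.70 and 10.74 in culture and 10.34, 10.12 and 10.12 in tumours.

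Secreted matrix proteins gave the deepest falls. Of 21 listed matrix glycoproteins and proteoglycans 17 were measured. Of these, 7 fell (41.2%) and 1 rose (5.88%), against 14.7% and 14.0% of all genes. Ptn, pleiotrophin, a heparin-binding growth factor, read 14.08, 14.27 and 14.23 in culture and 8.21, 7.70 and 8.78 in tumours. That difference of -5.96 ± 0.27 (SE, adjusted p = 6.8e-05) was the largest fall among genes above background in both groups. Mgp, which keeps matrix from calcifying, read 13.12, 13.43 and 12.92 against 7.85, 6.87 and 10.08, and Gpc3, a glypican that binds growth factors, 11.77, 12.01 and 11.67 against 6.60, 6.10 and 8.10. Recipient 3 kept the most of both. Ogn, the small proteoglycan osteoglycin, fell by 4.04 (SE 0.16), to a level above background on 5 of 9 tumour arrays. All 4 genes were high in primary MEFs too, at means of 14.86, 13.85, 13.12 and 13.61. Mdk, the relative of Ptn, fell by 2.86 (SE 0.72), a call lost without any 1 transformed array or recipient 1 (adjusted p up to 0.10). Tnc, tenascin C, moved the other way, from 13.35, 13.17 and 13.22 to 14.71, 14.12 and 14.76. Fn1, Sparc and Bgn did not pass.

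Of 19 collagen genes, 4 rose (21.1%, against 14.0% of all genes) and none fell. Col7a1, the anchoring fibril collagen, read 9.05, 8.84 and 9.06 in culture and 12.50, 11.89 and 14.36 in tumours, a difference of 3.93 ± 0.59 (SE). Col18a1, a basement membrane collagen, rose by 2.20 ± 0.18 (SE) and Col5a3 by 0.94 ± 0.16 (SE). Col6a3 rose by 1.08 ± 0.26, but not without any 1 transformed array or recipient 1 (adjusted p up to 0.096). Col1a1, the main fibrillar collagen, read 12.73, 12.31 and 12.43 against 12.72, 11.16 and 13.41, with the 2 groups overlapping.

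Among 15 measured matrix proteases and inhibitors 5 rose (33.3%) and 1 fell (6.67%), against 14.0% and 14.7% of all genes. Mmp13, an interstitial collagenase, read 9.44, 9.24 and 9.60 in culture and 13.25, 13.34 and 14.13 in tumours. Mmp10, stromelysin 2, read 10.24, 11.61 and 10.44 against 13.57, 14.73 and 14.47 and was near background in primary MEFs (mean 6.20). Mmp9, a gelatinase, rose by 3.70 ± 0.32 (SE), and Mmp12, the macrophage elastase, by 3.22 ± 0.46 (SE). Both are also made by macrophages, whose markers rose in the same tumours. Timp1, an inhibitor of these enzymes, rose from 14.23, 14.07 and 14.18 to 14.76, 14.90 and 15.03, a call lost without transformed array 2 or 3 (adjusted p up to 0.055). Adamts1 fell by 1.54 (SE 0.18). Mmp2 and Mmp14 did not pass.

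**Figure D2:**
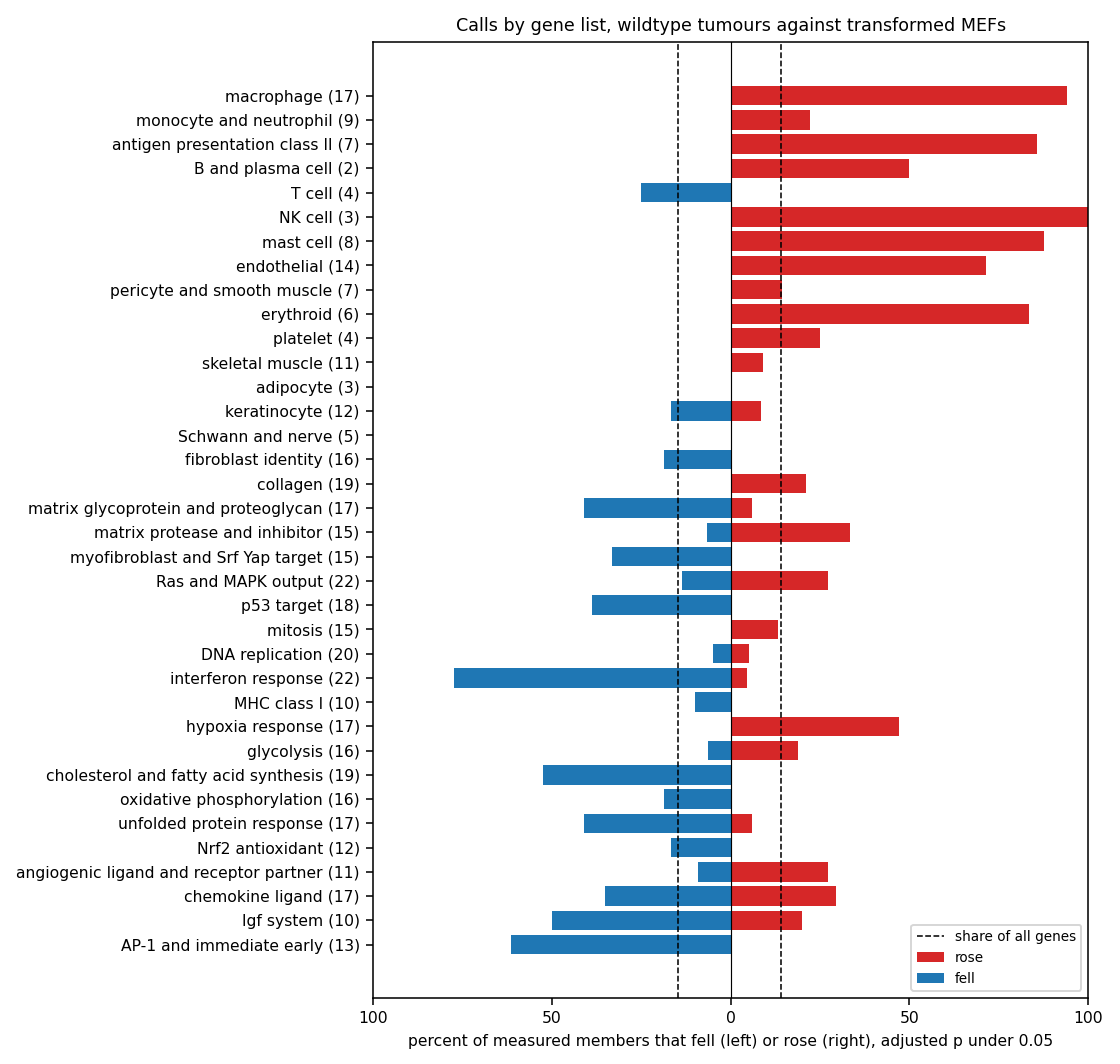
Percent of the measured genes of each list that fell (left) or rose (right) in wildtype tumours against wildtype transformed MEFs, with dashed lines at the shares of all genes tested (14.7% fell, 14.0% rose). Bars to the right belong mostly to host cell lists, and the longest bar to the left is the interferon response, where 17 of 22 measured genes fell.

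Interferon response genes fell. They are switched on when interferon activates a factor that holds Stat2 and Irf9, which binds a repeated GAAA element in promoters. Of 30 listed genes 22 were measured, 17 fell (77.3%, against 14.7% of all genes) and 1 rose, with a median of -1.69. Usp18, a feedback inhibitor of interferon signalling, read 11.81, 11.69 and 11.83 in culture and 9.92, 8.49 and 8.37 in tumours (a difference of -2.85 ± 0.41, SE, adjusted p = 0.0041). Ifit3, which blocks foreign RNA, read 11.23, 11.03 and 11.20 against 9.52, 8.78 and 8.65. Gbp3, a guanylate-binding protein, read 10.37, 10.49 and 10.61 against 8.56, 8.44 and 8.44 and was nearly equal in the 3 recipients. Gbp2 fell by 2.63 (SE 0.22), Bst2, which tethers virus particles, by 2.24 (SE 0.30) and Mx2 by 2.30 (SE 0.27). Irf9, a factor of the pathway itself, fell too, from 10.92, 11.12 and 11.03 to 8.96, 9.35 and 8.90.

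The fall followed a higher level in culture. The list averaged 8.48, 8.45 and 8.80 in primary MEFs, 9.78, 9.82 and 9.85 in transformed MEFs and 8.68, 8.33 and 8.09 in tumours. Transformed MEFs had the higher mean in 21 of the 22 genes against primary MEFs, and in 7306 of all 13870 genes. Genes of a list are not independent. Oas2 was the gene that rose (1.06 ± 0.27, SE, lost without any 1 transformed array, adjusted p up to 0.12). Rsad2 read 8.63, 8.72 and 9.02 against 9.86, 9.09 and 8.51 and did not pass. Without transformed array 1, 2 or 3, 13 genes fell. Among the genes named for their promoters, the calls of Oasl2 and Irf7 were lost without any 1 of them, and those of Psmb9, Stat2 and Cxcl10 without 2 of them (adjusted p up to 0.11). Class I antigen presentation, which interferon also controls, had 1 fall among 10 measured genes (Tapbp, 9.32, 9.25 and 9.11 against 8.12, 8.05 and 8.16). That is 10%, against 14.7% of all genes.

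Promoters of 3 falling genes are printed because they hold the element that gives this gene group its name. The windows are from RefSeq (GRCm38.p6), from 5′ to 3′ on the gene's strand: Ifit3 at chr19:34583279-34583578, Gbp3 at chr3:142559794-142560093 and Gbp2 at chr3:142620413-142620712, all on the plus strand. Capitals mark a pair of GAAA runs with 2 bases between them, on either strand, and 2 overlapping matches run together in Gbp3.
Ifit3: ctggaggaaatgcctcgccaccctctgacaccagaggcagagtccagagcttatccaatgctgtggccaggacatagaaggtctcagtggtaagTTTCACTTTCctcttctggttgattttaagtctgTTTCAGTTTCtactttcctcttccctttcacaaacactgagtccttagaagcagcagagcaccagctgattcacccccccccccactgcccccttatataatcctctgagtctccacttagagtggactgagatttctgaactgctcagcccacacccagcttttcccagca
Gbp3: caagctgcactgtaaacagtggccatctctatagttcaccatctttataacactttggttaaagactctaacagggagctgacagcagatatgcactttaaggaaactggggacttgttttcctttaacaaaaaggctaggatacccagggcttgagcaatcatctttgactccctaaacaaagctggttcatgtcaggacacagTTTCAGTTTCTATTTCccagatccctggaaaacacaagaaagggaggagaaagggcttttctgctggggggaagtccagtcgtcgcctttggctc
Gbp2: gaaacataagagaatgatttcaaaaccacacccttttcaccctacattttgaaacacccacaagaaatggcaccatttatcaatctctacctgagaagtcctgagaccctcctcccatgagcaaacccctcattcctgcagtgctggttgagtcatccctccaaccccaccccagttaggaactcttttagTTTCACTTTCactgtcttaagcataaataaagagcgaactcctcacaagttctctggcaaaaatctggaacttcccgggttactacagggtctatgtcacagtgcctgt
Of the 13 falling genes with a RefSeq window, 8 (61.5%) held this pair, against 1079 of all 27025 genes with windows (3.99%). The 8 are Ifit3, Stat2, Ddx58, Bst2, Gbp2, Gbp3, Igtp and Cxcl10. The windows of Ifit2, Oasl2, Irf7, Irf9 and Psmb9 do not hold these letters. Of the 4 measured genes that did not pass and have a window, 2 held it. The motif is a description of the list and was not tied to the size of the fall.

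Genes of AP-1 and the immediate early response, which growth factor signalling induces within minutes, were lower in every measured case. Of 15 listed 13 were measured, 8 fell (61.5%, against 14.7% of all genes) and none rose, with a median of -1.32. Fos, a subunit of the AP-1 transcription factor, read 13.28, 13.60 and 13.68 in culture and 9.21, 10.67 and 8.74 in tumours (-3.98 ± 0.48, SE, adjusted p = 0.0021). Fosb, its relative, read 11.54, 11.63 and 11.81 against 7.56, 7.78 and 8.54. The zinc finger factors Egr1 and Egr2 fell by 2.06 (SE 0.19) and 2.12 (SE 0.26). Junb read 12.31, 12.17 and 12.27 against 11.29, 11.22 and 11.62. Jun itself read 10.82, 11.13 and 10.96 against 10.36, 10.23 and 10.71 and did not pass (adjusted p = 0.061). The calls of Atf3 and Jund were lost without any 1 transformed array (adjusted p up to 0.056 and 0.093), and that of Jund also without recipient 1. As with the interferon list, transformed MEFs had a higher mean than primary MEFs, in 13 of 13 genes (7306 of all 13870). The list mean in tumours (9.65, 9.88 and 9.65) was below that of primary MEFs (10.18, 10.18 and 10.12).

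Other outputs of Ras signalling were mixed. Of 22 measured genes 6 rose (27.3%) and 3 fell (13.6%), against 14.0% and 14.7% of all genes. In culture the list mean was 10.90, 10.89 and 10.94 against 9.10, 9.22 and 9.08 in primary MEFs. Plaur, the urokinase receptor, read 9.46, 8.88 and 9.27 in culture and 12.27, 10.86 and 11.83 in tumours. Dusp4, a phosphatase that limits MAPK signalling, rose by 1.54 ± 0.27 (SE). Il1rl1, the receptor of interleukin 33, had risen in culture (primary mean 8.21, then 13.59, 13.40 and 13.70) and fell in tumours to 11.84, 12.23 and 11.73. Hbegf, Epha2, Etv4 and Etv5 lost their calls without any 1 transformed array (adjusted p up to 0.12; Etv4 also without recipient 1), and Ier3 without array 3 (adjusted p = 0.054), so that 2 or 3 rises remained without 1 transformed array. With the values as deposited the list held 11 rises and 2 falls, with a median of 0.65 in place of 0.33. Dusp6, a direct readout of Erk activity, read 13.45, 13.50 and 13.60 against 13.74, 13.74 and 13.89 and did not pass (adjusted p = 0.14).

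The transforming alterations could be followed by 1 or 2 probes. Trp53 had a primary mean of 10.97 and read 7.55, 7.67 and 7.53 in transformed MEFs and 7.96 to 8.86 in tumours (0.69 ± 0.26, SE, adjusted p = 0.087). The other Trp53 probe was above background on no transformed array and on 8 of 9 tumour arrays (adjusted p over all probes 0.038). Host cells carry no knockdown. Their part in the Trp53 level was not tested. Hras read 10.25, 10.09 and 10.16 against 10.42, 9.94 and 10.05, while its other probe was 0.77 lower in the tumours (-0.77 ± 0.13, SE). The sources used here do not say which transcript, mouse or introduced, either probe reads. Cdkn2a, which encodes the tumour suppressors p16 and p19Arf, was near background in primary MEFs (mean 6.16), read 14.43, 14.31 and 14.29 after transformation and 13.00, 13.40 and 13.60 in tumours. That fall of 1.01 (SE 0.18) was lost without transformed array 1 (adjusted p = 0.051), and its other 2 probes differed by -1.46 and -2.10. Prl2c2, a proliferin, also near background in primary MEFs (mean 6.04), read 13.82, 13.55 and 13.50 in culture and 15.12, 13.70 and 14.44 in tumours and did not pass.

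Genes that p53 activates fell in 7 of the 18 measured (38.9%, against 14.7% of all genes) and rose in none. Ccng1, cyclin G1, read 12.23, 12.29 and 12.46 in culture and 10.89, 10.73 and 11.23 in tumours (-1.38 ± 0.17, SE, adjusted p = 0.0025). It was the one call kept in every fit that leaves out 1 sample. Plk2 was lost without transformed array 3, and Bbc3, Sesn2, Trp53inp1, Fas and Zmat3 without any 1 transformed array (adjusted p up to 0.15). Sesn2, Trp53inp1 and Zmat3 were also lost without recipient 1, and Zmat3 without recipient 2. With the values as deposited 2 genes rose and 1 fell, with a median of -0.02 in place of -0.48, so the direction of this list rests on the scaling.

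Cholesterol and fatty acid synthesis fell in 10 of 19 measured genes (52.6%, against 14.7% of all genes) and rose in none, with a median of -0.96. Nsdhl, an enzyme of the late cholesterol pathway, read 10.75, 10.61 and 10.77 in culture and 7.87, 8.62 and 7.40 in tumours. Lss, which closes the sterol rings, read 10.44, 10.49 and 10.32 against 8.99, 8.92 and 8.85 (-1.49 ± 0.13, SE, adjusted p = 6.2e-04). Mvk and Mvd, kinase and decarboxylase of the mevalonate pathway, fell by 1.54 (SE 0.14) and 1.63 (SE 0.17), and Scd1, which desaturates fatty acids, by 1.36 (SE 0.24). Sterol synthesis is switched by Srebf2, which read 10.12, 10.26 and 10.18 against 11.37, 10.18 and 11.24 and did not pass. Elovl6 and Insig1 lost their calls without any 1 transformed array (adjusted p up to 0.072 and 0.15), and Insig1 also without recipient 3. The list averaged 9.38, 9.42 and 9.33 in primary MEFs, 9.99, 9.98 and 9.93 after transformation and 9.32, 9.03 and 9.18 in tumours. On the arrays of the third tumour beadchip alone 5 genes fell.

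**Figure D3:**
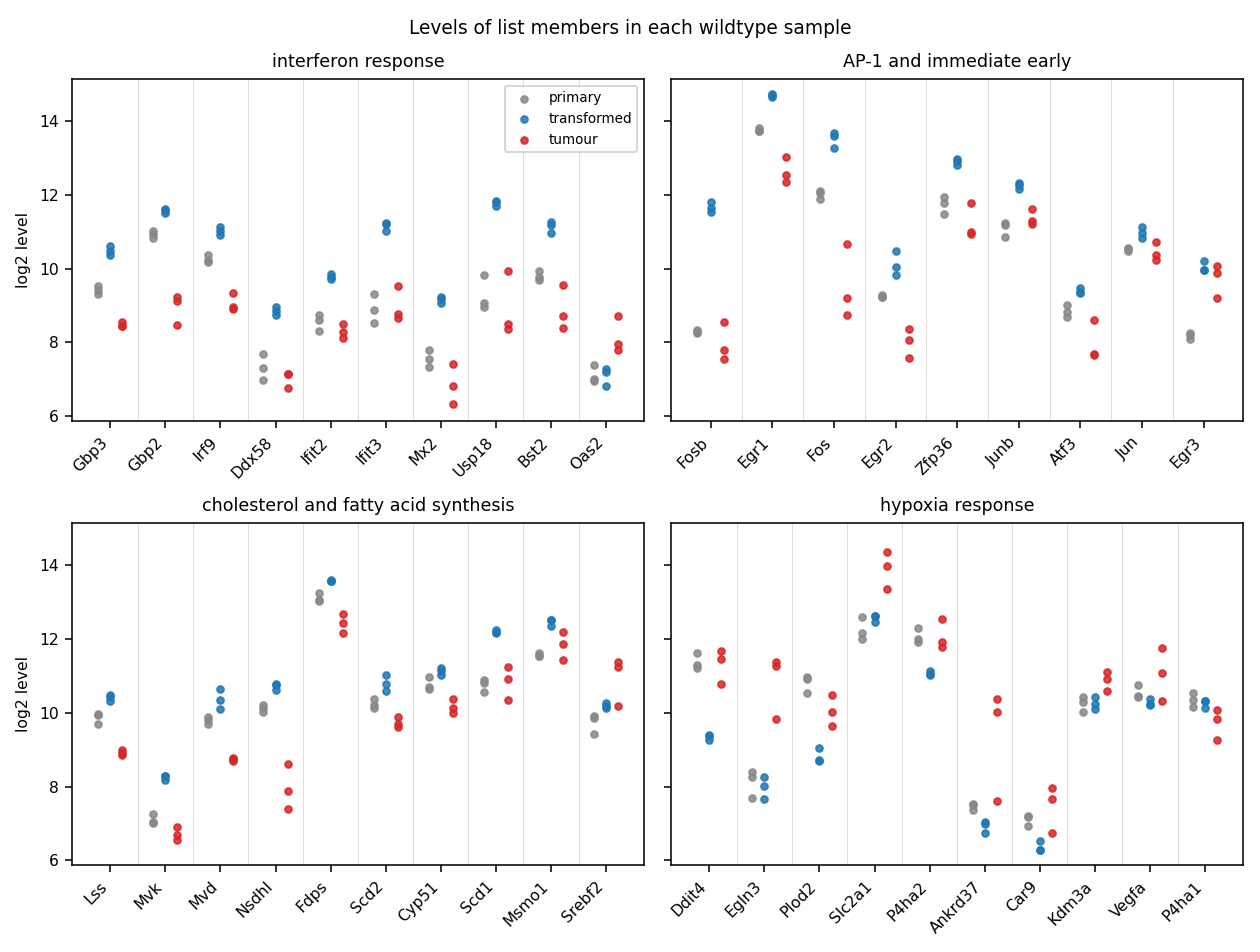
Log2 level of named interferon, AP-1, cholesterol and hypoxia genes in each wildtype sample of primary MEFs, transformed MEFs and tumours (recipient means). For Ifit3, Usp18, Fos and Nsdhl the transformed samples are the highest of the 3 stages, while most hypoxia genes are higher in tumours than in transformed samples.

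Hypoxia response genes rose in 8 of 17 measured (47.1%, against 14.0% of all genes) and fell in none. They are induced when low oxygen stabilises Hif1a, which binds the core ACGTG. Egln3, a prolyl hydroxylase that feeds back on this factor, read 8.27, 7.67 and 8.02 in culture and 11.27, 11.37 and 9.82 in tumours (2.84 ± 0.43, SE, adjusted p = 0.0051). Ddit4, an inhibitor of growth signalling, read 9.38, 9.26 and 9.41 against 10.78, 11.45 and 11.67. Slc2a1, the main glucose transporter, read 12.46, 12.62 and 12.64 against 14.35, 13.98 and 13.34. Ankrd37 read 7.03, 6.74 and 6.98 against 10.03, 10.37 and 7.62. Recipient 3 was the lowest for Egln3, Slc2a1 and Ankrd37 but the highest for Ddit4. Its Rep 3 array gave 6.27 for Ankrd37, with 8.69 and 7.91 on its other arrays, and without that array 9 genes rose. Without transformed array 1, 2 or 3 the number fell to between 2 and 3, and without 1 recipient it lay between 5 and 13. Egln3 and Ddit4 were kept throughout. Slc2a1 and P4ha2 were lost without any 1 transformed array, Plod2 without array 1 or 2, and Ankrd37, Car9 and Kdm3a without any 1 transformed array or recipient 1 or 2 (adjusted p up to 0.16). With the Rep number as a replicate block 4 genes rose. Vegfa, the vessel growth factor that hypoxia induces, read 10.21, 10.36 and 10.24 against 11.75, 11.07 and 10.31, with the groups overlapping.

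The promoter windows of Slc2a1 (chr4:119108495-119108794, plus strand) and Ankrd37 (chr8:45999801-46000100, minus strand) are shown as examples of the core in rising genes, again from RefSeq (GRCm38.p6), 5′ to 3′ on the gene's strand, with each ACGTG on either strand in capitals.
Slc2a1: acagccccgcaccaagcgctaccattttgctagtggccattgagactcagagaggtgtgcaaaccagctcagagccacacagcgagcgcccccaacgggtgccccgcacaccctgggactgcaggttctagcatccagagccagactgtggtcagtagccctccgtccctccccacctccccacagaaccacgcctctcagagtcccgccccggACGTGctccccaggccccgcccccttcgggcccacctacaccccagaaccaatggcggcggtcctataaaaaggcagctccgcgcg
Ankrd37: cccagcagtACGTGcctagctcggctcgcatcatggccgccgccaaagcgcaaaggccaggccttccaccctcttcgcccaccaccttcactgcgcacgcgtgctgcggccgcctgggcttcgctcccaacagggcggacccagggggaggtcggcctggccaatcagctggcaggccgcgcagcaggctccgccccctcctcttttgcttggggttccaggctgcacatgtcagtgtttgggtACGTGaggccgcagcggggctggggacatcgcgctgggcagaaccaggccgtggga
Of the 7 rising genes with a window 6 (85.7%) held the core, and of the 7 that did not pass, 4 did. It is a short and common run of letters, found in 21.8% of all genes with a window.

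Signals to host cells changed in both directions. Of 17 measured chemokine and colony factor genes 5 rose (29.4%) and 6 fell (35.3%), against 14.0% and 14.7% of all genes. Ccl2, which attracts monocytes, fell from 11.17, 10.92 and 11.39 to 9.42, 9.81 and 9.45. Ccl11, the eosinophil attractant, read 10.45, 10.20 and 10.69 against 7.89, 6.61 and 8.29, and Cxcl12, made by stromal cells, 10.04, 10.15 and 10.37 against 7.43, 7.40 and 8.44. Cxcl16 rose from 8.09, 8.28 and 8.19 to 10.84, 11.04 and 10.85 (adjusted p = 8.6e-05). Ccl9 read 7.25, 7.14 and 7.18 against 11.59, 11.48 and 9.86, and Ccl4, an inflammatory chemokine of macrophages, 6.43, 6.01 and 6.27 against 10.81, 12.50 and 9.44. Both were high in primary MEFs (means 11.78 and 12.47), where macrophage markers were high as well. The part of macrophages in their rise was not tested. Ccl6, Ccl3 and Cxcl1 lost their calls without any 1 transformed array, Ccl3 and Cxcl1 also without recipient 1, Ccl7 without array 1 or 3 and Cxcl10 without array 1 or 2 (adjusted p up to 0.15).

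Of 10 genes of the insulin-like growth factor system 2 rose (20%) and 5 fell (50%), against 14.0% and 14.7% of all genes. Igf2, the fetal growth factor, read 15.11, 15.13 and 15.11 in culture and 12.97, 11.52 and 13.04 in tumours. Igf1 fell by 2.04 (SE 0.25). Igfbp2, which binds both, fell from 8.34, 8.54 and 8.73 to no array above background, at least 4.70-fold lower. Igfbp4 rose from 12.49, 13.21 and 12.83 to 14.45, 14.33 and 14.80. The rise of Igfbp3 was lost without any 1 transformed array or recipient 1, and the fall of Igfbp7 without array 1 or 3 (adjusted p up to 0.080). Among vessel growth factors, Pgf was at least 4.51-fold higher (8.88, 9.08 and 7.67), and Vegfb fell from 12.14, 12.09 and 12.16 to 9.63, 10.72 and 9.68.

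Of 15 measured targets of Srf and Yap 5 fell (33.3%, against 14.7% of all genes). Lox, which cross-links collagen, read 12.71, 12.51 and 12.73 in culture and 9.53, 9.38 and 9.69 in tumours (-3.12 ± 0.15, SE, adjusted p = 7.1e-05). Ccn1, a Yap target, fell by 2.07 (SE 0.16) and Tagln, a smooth muscle protein, by 1.91 (SE 0.22). Acta2, the myofibroblast actin, read 14.55, 14.31 and 14.45 against 14.69, 13.93 and 14.03, and Ccn2, another Yap target, 11.78, 11.31 and 11.69 against 12.14, 11.42 and 12.98. Neither passed. The fall of Myl9 was lost in 5 of the 6 fits that leave out 1 sample (adjusted p up to 0.12). With the values as deposited the list held 3 rises and 4 falls, with a median of 0.24 in place of -0.22.

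Cell division genes passed the test at or below the shares of all genes (14.0% rose and 14.7% fell). Among 15 measured mitosis genes 2 rose (13.3%) and none fell (median 0.16). Among 20 DNA replication genes 1 rose (5%) and 1 fell (5%, median 0.07). Mki67, the common proliferation marker, read 9.86, 9.73 and 9.47 in culture and 11.26, 10.24 and 11.07 in tumours, and Bub1b, a spindle checkpoint kinase, 9.96, 9.94 and 9.94 against 10.32, 10.54 and 10.65. The calls of both, and of Gins2 and Pole in the replication list, were lost without any 1 transformed array (adjusted p up to 0.13), and those of Mki67 and Gins2 also without recipient 1 or 3. Top2a, which untangles DNA, read 10.73, 10.41 and 10.80 against 10.86, 11.06 and 10.98 and did not pass. With the values as deposited, 7 mitosis and 9 replication genes rose.

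Among genes above background on any array of each stage, the largest rises were Mrc1, of the macrophage list, and then Alox5ap, P2ry6, Cyth4 and Crhbp. Mrc1 and P2ry6 were above background on only 2 of the 3 transformed arrays, so their differences rest on culture values near background. Alox5ap, which serves leukotriene synthesis in leukocytes, read 6.86, 7.05 and 6.48 in culture and 12.17, 12.67 and 11.15 in tumours. P2ry6, a nucleotide receptor, rose by 5.02 ± 0.21 (SE) and Cyth4 by 4.77 ± 0.17 (SE). These 3 genes were also high in primary MEFs (means 9.93, 10.24 and 11.01). Crhbp, the binding protein of corticotropin-releasing hormone, was not (mean 6.05). It read 6.95, 6.79 and 7.11 in culture and 10.15, 13.20 and 11.65 in tumours. Npy, neuropeptide Y, read 9.04, 7.66 and 7.03 against 13.21, 11.90 and 12.50. Falls outside the lists were led by Cdo1, a cysteine-oxidising enzyme, which read 11.21, 10.85 and 11.13 against 6.61, 6.37 and 6.96. Adam23 and Itm2a fell by 4.29 (SE 0.16) and 4.18 (SE 0.46). Of the 941 genes that fell by at least 2-fold, 930 were above background on all 3 primary arrays and 38 on no tumour array.

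The step was also measured in null cells, with no sample in common but on the same beadchips and in the same normalization. Beadchip and stage therefore cannot be told apart there either, and the overlap below is not free of this. There 3375 genes rose (24.3%) and 3345 fell (24.1%), together 48.4% of those tested. Of the 1945 wildtype rises, 1683 (86.5%) were also called higher in null, which is 49.9% of the null rises, and none was called lower. Of the 2044 wildtype falls, 1658 (81.1%) were called lower in null, 49.6% of the null falls, and 2 were called higher, Elmo3 and Trim25, which were singled out after their values were seen. Over all genes the wildtype and null differences correlated at 0.916 (Pearson, across genes, which are not independent). The largest wildtype changes were large in null too, with Laptm5 at 7.36, Hba-a1 at 7.51, Ptn at -5.65 and Fos at -3.27.

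No gene (0.00%) passed the test of the difference between the 2 steps (limma interaction, smallest adjusted p 0.098), although 890 genes (6.42%) had an unadjusted p under 0.05. The lists show where the unadjusted differences lay. In the interferon list the null median was -0.82 against -1.69 in wildtype, the wildtype difference was the higher in 1 of 22 genes, and 13 had an unadjusted interaction p under 0.05. Gbp3 fell by 2.01 in wildtype and by 0.89 in null (limma interaction, adjusted p = 0.13). Its mean in culture was 10.49 in wildtype and 9.04 in null, and in tumours 8.48 and 8.15. In the mitosis list null tumours had 9 falls, with a median of -0.58, and the wildtype difference was the higher in 15 of 15 genes. For DNA replication it was 14 falls, -0.56 and 20 of 20. In each of these 2 lists 12 genes had an unadjusted interaction p under 0.05. Over all genes the wildtype difference was the higher in 6872 of 13870, and 24.1% fell in null. Genes of a list are not independent, so these counts describe the lists.

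**Figure D4:**
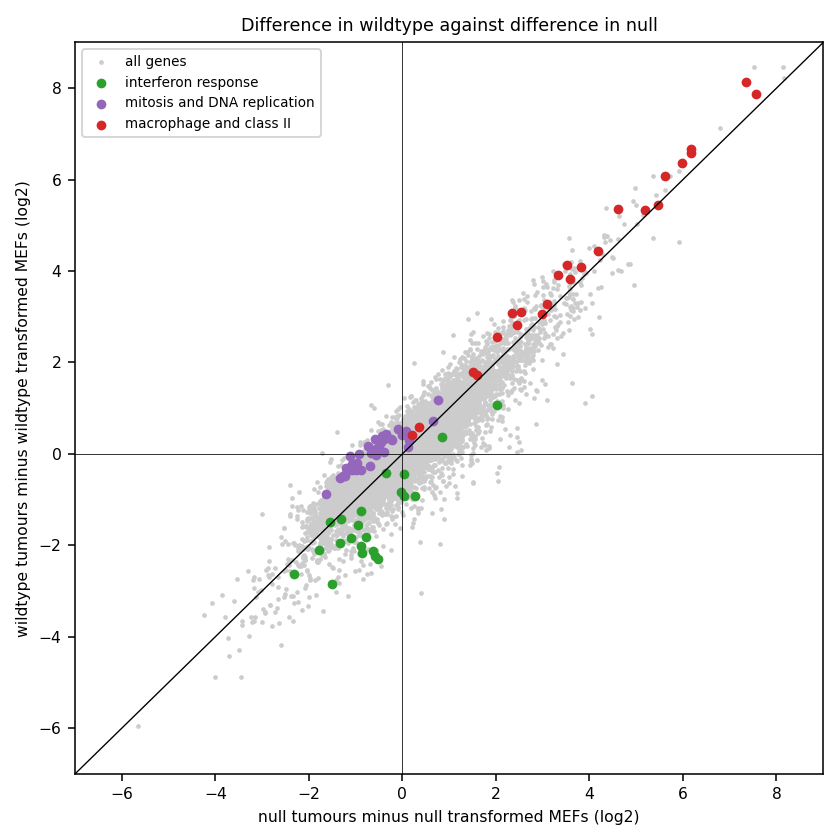
Log2 difference of tumours minus transformed MEFs in Smchd1 null cells (x axis) and in wildtype (y axis), with 1 point per gene and the line of equality. Interferon genes (green) lie mostly below the line, mitosis and DNA replication genes (purple) above it, and macrophage and class II genes (red) run to the upper right, most of them on or slightly above it.

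The smallest interaction p-values belonged to Adh1 and Gm4951. Adh1, an alcohol dehydrogenase that also oxidises retinol, read 8.65, 9.14 and 9.22 in wildtype culture and was above background on no wildtype tumour array, at least 6.50-fold lower. It was above background on no null tumour array either, so both differences are bounds (limma interaction, adjusted p = 0.098). Gm4951, an interferon-inducible GTPase gene, differed by -1.14 in wildtype and was not above background on any null transformed array (limma interaction, adjusted p = 0.098). In the other direction Armh4 had the smallest p (limma interaction, adjusted p = 0.13). Csf2ra, a chain of the GM-CSF receptor, had a larger p. It read 6.94, 7.06 and 7.18 in wildtype culture and 9.50, 9.65 and 9.85 in tumours, a difference of 2.61 against 1.09 in null (limma interaction, adjusted p = 0.28). Its mean in culture was 7.06 in wildtype and 8.56 in null, and in tumours 9.67 and 9.65.

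Some genes differed widely between the 3 wildtype tumours. Recipient values correlated with each other at 0.936 to 0.959 over genes, and transformed arrays at 0.994 to 0.995. Krt8, a keratin of simple epithelium, read 7.03, 7.91 and 14.41 in recipients 1, 2 and 3, against 7.70, 7.82 and 8.29 in culture. Its partner Krt18 read 9.84, 10.96 and 13.44. The 3 arrays of recipient 3 gave 14.62, 14.75 and 13.86 for Krt8, so the high value was found on each of them. Recipient 2 was highest for S100a9, Ccl3 and Rgs17, a regulator of G protein signalling that read 7.83, 12.28 and 10.75. Recipient 1 was highest for Klk8, a secreted protease (11.79, 7.62 and 8.88). Gap43, a neuronal growth protein, read 10.72, 12.05 and 7.68 against 11.60, 11.86 and 11.81 in culture. None of Krt8, Krt18, Rgs17, Klk8 and Gap43 passed the test between the groups.

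**Figure D5:**
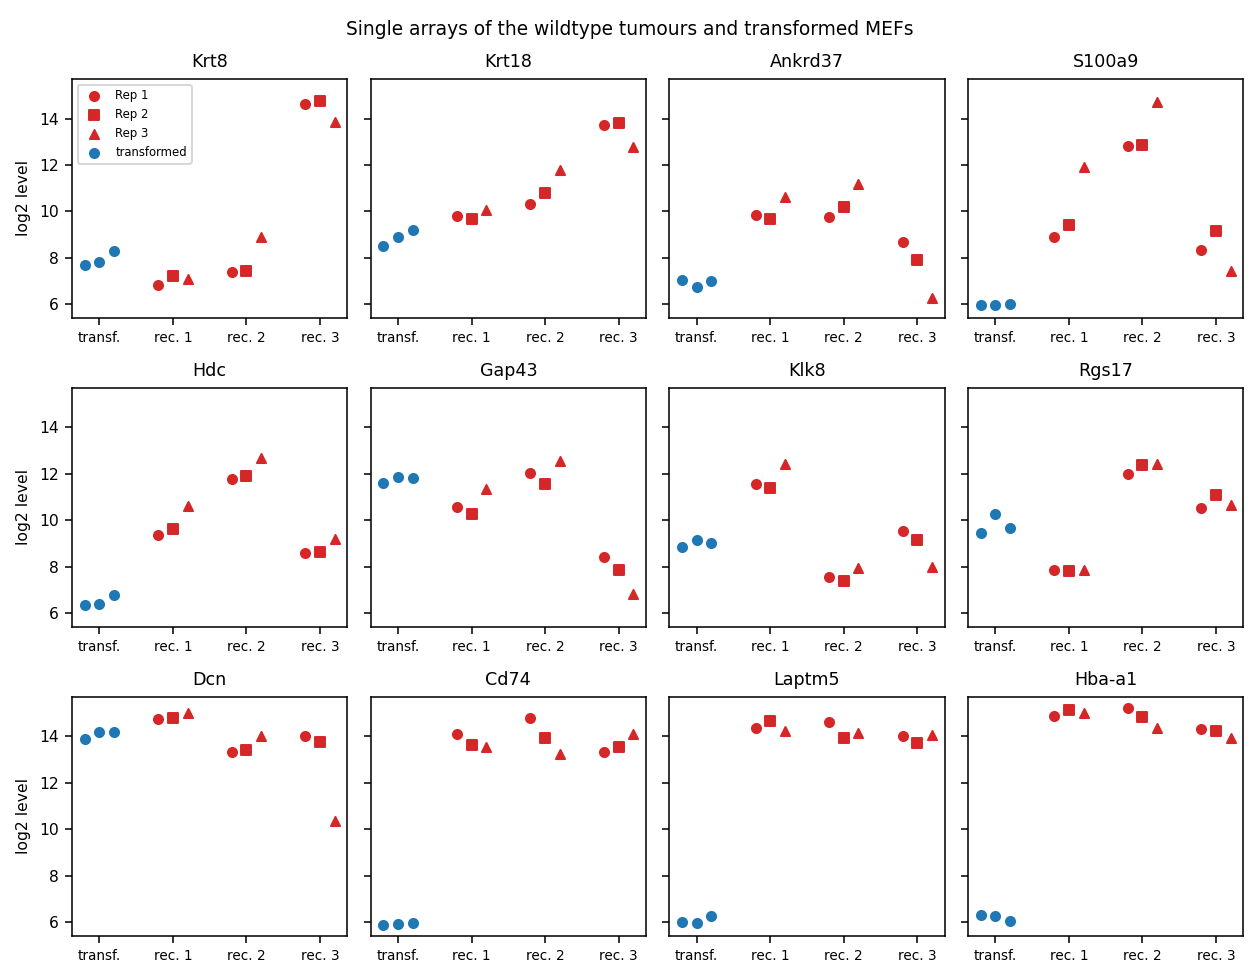
Log2 level of 12 genes on every single wildtype tumour array, by recipient and Rep number, beside the 3 transformed arrays. Krt8 is high on all 3 arrays of recipient 3, S100a9 on those of recipient 2, and Dcn is low on the Rep 3 array of recipient 3.

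Of 4 measured Y-linked genes 2 rose. Ddx3y read 10.96, 11.15 and 11.10 in culture and 12.15, 12.18 and 12.34 in tumours, and Eif2s3y was at least 1.86-fold higher in tumours, where 8 of 9 arrays were above background. Uty was lower (7.29, 7.44 and 7.59 against 6.90 to 7.04), a call lost in 5 of the 6 fits that leave out 1 sample (adjusted p up to 0.18), and Kdm5d did not pass. The labels do not give the sex of the cells or of the recipients.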

How the data were processed

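Smchd1 wildtype and null samples of 3 stages were hybridised to 30 Illumina MouseWG-6 v2 arrays after RNA extraction and linear amplification. The deposited values are log2 probe signals, which the values themselves show to be quantile normalized within each stage. The submitters' processing notes name BeadStudio, limma 3.12.1 and R 2.15.1. The deposited scanner tables hold intensity values and detection p-values in 480 columns that match no sample label. They were used for probe names, part of them older symbols, and to count the arrays on which a probe was detected (p-value under 0.01).

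All 30 arrays were quantile normalized together, and 20254 probes detected on at least 3 arrays were kept, with the brightest probe standing for a gene. Genes silent in transformed MEFs passed this filter through other stages. Recipient means were compared with transformed arrays by limma 3.58.1 in R 4.3.3 (4 residual degrees of freedom, Benjamini-Hochberg adjusted p under 0.05). Error terms are standard errors of that fit. A fold against a group not above background on any array is a lower bound with that group held at its arrays' background. The number of arrays limits the precision. The fit was tested on simulated data. Tables were made with Python 3.11.15, pandas 2.3.3 and numpy 2.4.6, and figures with matplotlib 3.10.9.

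The comparison, gene lists and tests were chosen with earlier results of these data known. Genes were named by rule: the 12 largest rises and falls, called and with replicates not overlapping, over all genes and over those above background in both stages, up to 6 members per list and 6 per direction of the interaction by p, up to 6 by spread between recipients, and the transforming, Smchd1 and Y-linked genes. Other list members were chosen after their values were seen. Listed genes without a kept probe were not analysed here, and a few genes are not reported here. Replicate numbers did not pair the samples: deviations of same-numbered transformed arrays and recipients correlated at 0.017, 0.055 and 0.017. Omitting the Rep 3 array of recipient 3 was an alternative chosen after seeing the data.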

Additional observations from a re-analysis of the deposited data

How the results depend on the processing

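Of 210 named genes that were called, 142 stayed called in all 6 fits that leave out 1 sample and 68 were lost in at least 1. Leaving out 1 sample gave 1703 to 6263 calls, 876 to 3160 rises and 822 to 3103 falls. As deposited, 4764 genes rose and 803 fell. All 6 groups with a shared spread gave 6437 calls (3203 rises, 3234 falls), and the third tumour beadchip alone 2154 (1084 and 1070). A minimum change of 1 on the log2 scale left 476 (309 and 167). The array-level fit with the Rep number as a replicate block gave 2773 calls, 1284 of them rises, but the numbers do not pair the samples. In null, 6144 rose and 1399 fell as deposited. The interaction gave 0 to 2 calls when 1 sample was left out. Of the called genes, 43 had the opposite sign as deposited, 66 with the median probe, 1 on beadchip 3 and 1 with detection on at least 15 arrays. Among the genes followed across settings, Uty and Fdps were called and the others whose sign turned were not. As deposited these were Col1a1 (0.30), Hras (0.46), Smchd1 (0.41) and Uty (0.021), and centred on array medians Kdm5d (-0.021). On beadchip 1 they were Col1a1 (0.24) and Smchd1 (0.14), on beadchip 3 Hras (0.19), with the median probe Smchd1 (0.27) and Fdps (0.020), and without the Rep 3 array of recipient 3 Dcn (0.015). With 1 sample left out the difference ranged from -0.55 to 0.57 for Col1a1, from -0.17 to 0.067 for Hras, from -0.052 to 0.25 for Kdm5d, from -0.95 to 0.12 for Dcn, from -0.47 to 3.22 for Krt8, from -0.49 to 1.73 for Rgs17 and from -0.75 to 1.34 for Klk8. The causes were not tested. Signal over background limits genes near 6.3, where only bounds hold.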

Other observations

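Some stress and metabolic genes were called. Of 17 unfolded protein response genes 7 fell (41.2%) and 1 rose (5.88%), against 14.7% and 14.0% of all genes. Calr, a chaperone of the endoplasmic reticulum, read 11.40, 11.22 and 11.27 in transformed MEFs and 9.63, 10.19 and 9.78 in tumours, a difference of -1.43 (adjusted p = 0.0025). With the values as deposited the list held 5 rises and 3 falls, and without 1 transformed array 2 genes fell. Among 12 genes of the Nrf2 response, 2 fell and none rose, near the 14.7% of all genes that fell. As deposited 4 rose and 1 fell, with a median of 0.34 in place of -0.09. Gstm1, a glutathione transferase, read 10.92, 11.01 and 10.99 against 8.40, 8.96 and 8.61 (adjusted p = 4.0e-04).

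Of 16 glycolysis genes 3 rose and 1 fell (18.8% and 6.25%, against 14.0% and 14.7% of all genes). As deposited 7 rose and 1 fell. Aldoc, the brain form of aldolase, fell by 1.51 on the log2 scale, to 7.43, 7.63 and 7.12 in tumours. Pkm, pyruvate kinase, rose by 0.71 (adjusted p = 0.0084). Of 16 genes of oxidative phosphorylation 3 fell (18.8%, near the 14.7% of all genes) and none rose. As deposited 1 rose and 1 fell, with a median of 0.13 in place of -0.18, and without any 1 transformed array 1 fell.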
